A study of Mus musculus with 4 samples.

Results

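EGLN3, PRKAA1 and ATP5MJ are 3 genes whose products sense oxygen, sense the energy state of the cell and take part in making ATP. They were picked by name from the 99 genes that have a probe set with exactly 1 gene symbol in the deposited table, and each has 1 probe set there. The table holds 137 probe sets in all. The genes were picked with their values in these tumors already known, so the values that follow are a description of the arrays and were not tested.

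RNA came from 4 orthotopic tumors of MDA-MB-231, a human triple-negative breast cancer cell line, grown injected into mammary fat pads of nude mice, which were female and athymic and of genotype Crl:NU(NCr)-Foxn1nu; such mice lack a working thymus. The cells carried either a control short hairpin RNA (shRNA; 2 tumors) or an shRNA that stably lowers DHHC3 (2 tumors), and the labels give the tumor age as 35 days for both groups. DHHC3, the product of ZDHHC3, is a palmitoyltransferase, which links the fatty acid palmitate to cysteine residues of its substrates, and the study addressed its part in tumor growth, oxidative stress and senescence. The 2 tumors of a group were taken from a series of 10 injections. The sample titles number the arrays of a group as replicates 1 and 2, and each array is taken here as 1 tumor. How many hairpins or cell clones were used, and whether tumors with the same hairpin grew in different mice, is not stated in the labels, so the spread between arrays may be partly technical. The labels name mouse, the host, as the organism, whereas the platform annotation of the probe sets names human genes. The signal that host RNA gave on these probes was not analysed.

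Cells adjust their metabolism to the oxygen and the fuel they have. EGLN3, also called PHD3, belongs to a small family of prolyl hydroxylases that use molecular oxygen and 2-oxoglutarate to hydroxylate hypoxia-inducible factor (HIF). Hydroxylated HIF is bound by the VHL ubiquitin ligase and degraded, and when oxygen is short HIF builds up and switches on glycolytic and angiogenic genes as well as EGLN3 itself. PRKAA1 encodes a catalytic alpha subunit of AMP-activated protein kinase (AMPK), which is switched on when ATP runs low and then turns down biosynthesis and turns up fuel use. ATP5MJ, formerly C14orf2 or MP68, is a small protein of the membrane part of mitochondrial ATP synthase, the enzyme that makes ATP from the proton gradient of the respiratory chain.

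The arrays were biotin-labelled, 1 sample per array, and the values are processed probe set intensities in arbitrary linear units. Each of the 137 listed probe sets already separates the groups, with the nearest arrays of the 2 groups at least 1.56-fold apart, and probe sets of the array that are not listed were not analysed. ZDHHC3, the target of the hairpin, read 971 and 854 units in control and 240 and 264 units in DHHC3 shRNA tumors, in the direction of the labels on all 4 arrays.

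EGLN3, the HIF prolyl hydroxylase, was lower in the DHHC3 shRNA tumors. Its probe set, 219232_s_at, gave 387 and 363 units in control tumors and 209 and 215 units in DHHC3 shRNA tumors. Both control arrays were high, both DHHC3 shRNA arrays were low, and the groups did not overlap. The group means were 375 ± 17.5 and 212 ± 3.89 (SD, n = 2 each), a 1.77-fold lower level with a log2 fold change of -0.82 ± 0.09 (SE from the limma fit over all probe sets). The 2 control arrays differed from each other by 6.82% and the 2 DHHC3 shRNA arrays by 2.63%, while the nearest arrays of different groups were 1.69-fold apart. The suffix _s_at marks a probe set whose probes can match more than 1 transcript.

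ATP5MJ, the ATP synthase subunit, was also lower and had the smallest relative spread of the 3 genes within both groups. Its probe set, 202279_at, gave 1610 and 1559 units in control tumors and 875 and 882 units in DHHC3 shRNA tumors. Again both control arrays were high and both DHHC3 shRNA arrays low. The means were 1584 ± 36.2 and 879 ± 5.18 (SD, n = 2 each), a 1.80-fold lower level with a log2 fold change of -0.85 ± 0.08 (SE). The arrays of a group differed by 3.28% in control and 0.838% in DHHC3 shRNA tumors, against 1.77-fold between the nearest arrays of different groups.

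PRKAA1, the AMPK catalytic subunit, went the other way. Its probe set, 214917_at, which the platform annotation pairs with no transcript accession, gave 195 and 208 units in control tumors and 355 and 342 units in DHHC3 shRNA tumors. Both DHHC3 shRNA arrays were high and both control arrays low. The means were 201 ± 9.20 and 348 ± 8.67 (SD, n = 2 each), a 1.73-fold higher level with a log2 fold change of 0.79 ± 0.09 (SE). The nearest arrays of different groups were 1.65-fold apart, and arrays within a group differed by 6.68% and 3.58%.

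**Figure D1:**
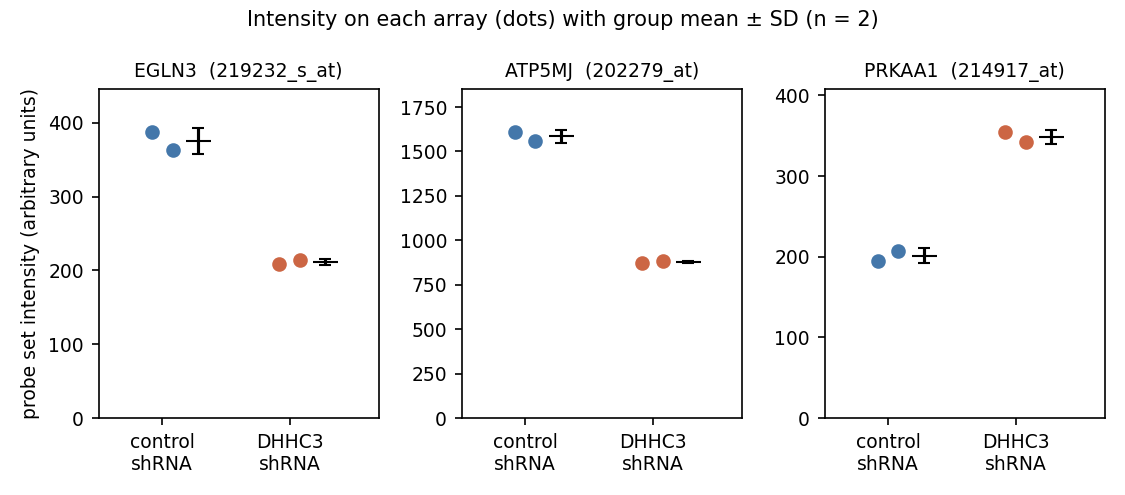
Probe set intensity in arbitrary linear units (vertical axis, from 0) of EGLN3, ATP5MJ and PRKAA1 on each of the 4 arrays. Dots are single arrays and a bar gives the group mean ± SD (n = 2). EGLN3 sits at 363 to 387 units in control and 209 to 215 units in DHHC3 shRNA tumors, ATP5MJ at 1559 to 1610 and 875 to 882 units, and PRKAA1 at 195 to 208 and 342 to 355 units.

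The groups did not overlap in 3 of the 3 genes, which is also so in 100% of the 137 probe sets of the table, whose choice by the authors is not explained in the sources used here. By direction, 2 of the 3 were lower, against 26.3% of the table, and 1 was higher, against 73.7%. Since these genes were chosen with the direction in view, nothing is read from these shares. With 2 tumors a group, the smallest p that an exact two-sided permutation test allows is 0.333. In bulk tumor RNA, fewer cells that express a gene and less of its RNA per cell cannot be told apart.

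The sizes of these differences were ordinary for the table. EGLN3 ranked 24 and ATP5MJ ranked 20 by fold among the 36 lower probe sets, whose median was 1.83-fold and whose range was 1.64-fold to 4.25-fold. PRKAA1 ranked 93 among the 101 higher probe sets, whose median was 1.99-fold and range 1.57-fold to 4.11-fold, so it lies near the small end. The arrays of a group were closer for these genes than for the typical probe set. The median probe set differed 1.11-fold between the 2 control arrays and 1.07-fold between the 2 DHHC3 shRNA arrays, against 1.07-fold and 1.03-fold for EGLN3, 1.03-fold and 1.01-fold for ATP5MJ, and 1.07-fold and 1.04-fold for PRKAA1.

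**Figure D2:**
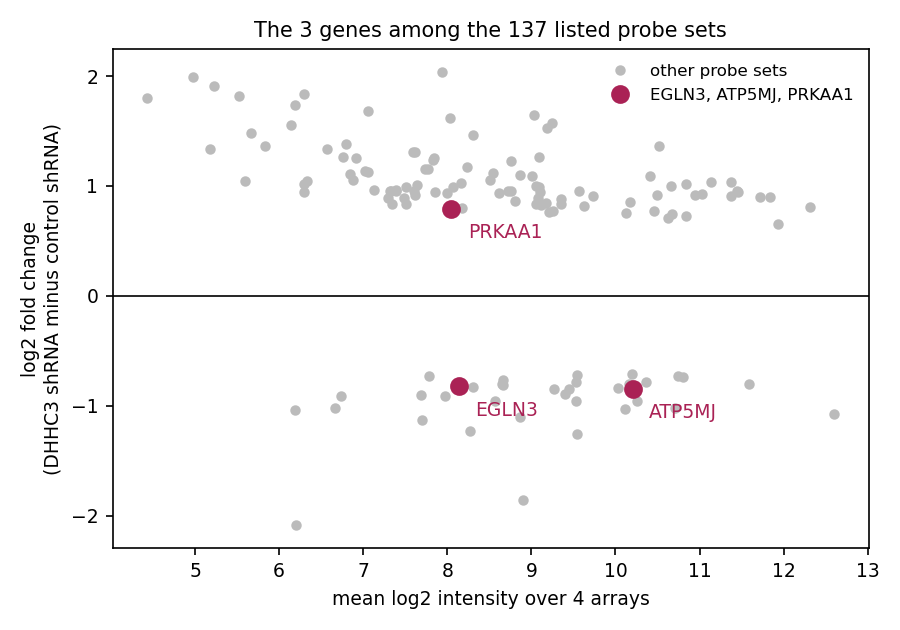
Log2 fold change (DHHC3 shRNA minus control shRNA) against the mean log2 intensity over the 4 arrays for the 137 probe sets, with EGLN3, ATP5MJ and PRKAA1 as large dots. PRKAA1, at 0.79, lies near the lower edge of the probe sets that were higher, and EGLN3 and ATP5MJ, at -0.82 and -0.85, lie within the probe sets that were lower.

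How the arrays were scaled against each other is not given in the sources used here, and the sizes depended on it. The median intensity over the table was 312 and 351 units for control and 484 and 458 units for DHHC3 shRNA tumors. Centring each array on that median shifts every log2 fold change by -0.509. By construction it makes the array medians equal, in a list made up mostly of higher probe sets. PRKAA1 then read 246 and 234 units in control and 289 and 295 units in DHHC3 shRNA tumors. That is 1.22-fold in place of 1.73-fold, still without overlap. EGLN3 was then 2.52-fold lower and ATP5MJ 2.57-fold lower. After quantile normalization over the list, which keeps only the ranks, PRKAA1 was 1.23-fold higher, EGLN3 2.69-fold lower and ATP5MJ 2.10-fold lower. The direction of each gene was the same in these settings, while the size for PRKAA1 was small in both. Centring could not reverse any listed probe set, as the smallest log2 fold change of a higher one was 0.654. The median log2 fold change of the table was 0.94, above the 0.79 of PRKAA1.

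Ranks within an array do not depend on any factor applied to that array. Counted from the brightest of the 137 probe sets, EGLN3 ranked 61 and 66 in control and 105 and 102 in DHHC3 shRNA tumors. ATP5MJ ranked 17 in both control tumors and 39 and 38 in the DHHC3 shRNA tumors. PRKAA1 moved the least, from 85 and 83 to 77 and 77. The ranks are relative to a list in which 101 of 137 probe sets were higher, so a probe set with no change can also lose places.

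The genes were next set against each other within each array, where a factor common to the array cancels. Intensities of different probe sets are not comparable as levels, because probes bind with different strength, so only the shift between groups is read. The log2 intensity of PRKAA1 minus that of EGLN3 was -0.99 and -0.80 in control and 0.76 and 0.67 in DHHC3 shRNA tumors. The shift was 1.62 ± 0.10 (SE) on the log2 scale, or 3.07-fold, and lay between 1.48 and 1.76 over the 4 pairs of a control with a DHHC3 shRNA array. PRKAA1 minus ATP5MJ went from -3.05 and -2.91 to -1.30 and -1.37, a shift of 1.64 ± 0.08 (SE), or 3.12-fold, and between 1.54 and 1.74 over the 4 pairs. A large shift follows from the choice of the genes, as PRKAA1 was picked as higher and the other two as lower from probe sets that all separate the groups, so these values describe its size only.

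EGLN3 and ATP5MJ kept a nearly constant ratio on the arrays. ATP5MJ minus EGLN3 was 2.06 and 2.10 in control and 2.07 and 2.04 in DHHC3 shRNA tumors, so the groups overlapped. The shift was -0.03 ± 0.03 (SE) and ranged from -0.06 to 0.01 over the 4 pairs, or at most 1.05-fold. After quantile normalization it was 0.35, so the near equality holds on the deposited scale and for any factor per array, and not on the rank-based scale. With 4 arrays a difference within that range cannot be told from 0, which does not show that the 2 genes behave alike.

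**Figure D3:**
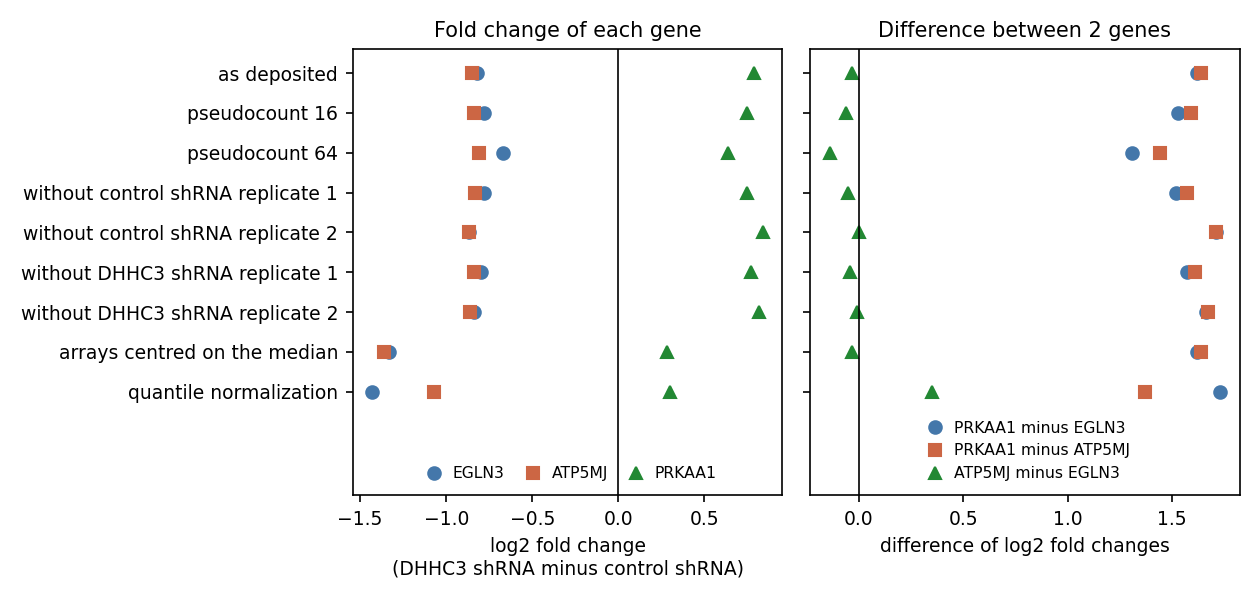
Log2 fold change (DHHC3 shRNA minus control shRNA) of EGLN3, ATP5MJ and PRKAA1 (left) and the difference of log2 fold changes between pairs of these genes (right) under each way of processing the table (rows). Centring or quantile normalization moves PRKAA1 from 0.79 to 0.28 and 0.30, while PRKAA1 minus EGLN3 stays between 1.31 and 1.73 over the settings shown.

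For each gene the 5 genes with the most similar course over the 4 arrays were sought among the 100 other single-symbol probe sets. Likeness was the Euclidean distance between the log2 values after subtraction of each gene's mean over the 4 arrays, and array-wide factors cancel in it. EGLN3 was nearest to ATP5MJ, at a distance of 0.047, and ATP5MJ was nearest to SMIM27, at 0.032, with EGLN3 next. SMIM27, a small membrane protein, read 837 and 814 units in control and 464 and 454 units in DHHC3 shRNA tumors, or 1.80-fold lower. PTPN7, a leukocyte tyrosine phosphatase, and OR7E12P, an olfactory receptor pseudogene on an _x_at probe set whose probes can bind other transcripts, were the other genes near both, 1.87-fold and 1.78-fold lower. GEMIN2, a protein of the complex that assembles spliceosomal snRNPs, was near EGLN3 and was 1.74-fold lower on this _x_at probe set. The aldo-keto reductase AKR1C1, also on an _x_at probe set, was near ATP5MJ and was 1.75-fold lower.

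PRKAA1 was nearest to STX16, a syntaxin of the trans-Golgi network, at a distance of 0.024. STX16 read 1036 and 1114 units in control and 1861 and 1808 units in DHHC3 shRNA tumors, 1.71-fold higher. RANBP2, a nucleoporin, was 1.75-fold higher and TRIM38, a ubiquitin ligase, was 1.69-fold higher. DOCK9, an exchange factor for CDC42, was 1.69-fold higher, and RAD1, of the DNA damage checkpoint clamp, was 1.75-fold higher. The probe sets of RANBP2 and RAD1 have the suffix _x_at. Every probe set of the table separates the groups, so small distances among those of like fold are common. The median distance to the single-symbol probe sets of the same direction was 0.15 for EGLN3, 0.142 for ATP5MJ and 0.26 for PRKAA1. The distance was 1.62 between PRKAA1 and EGLN3, which went in opposite directions.

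**Figure D4:**
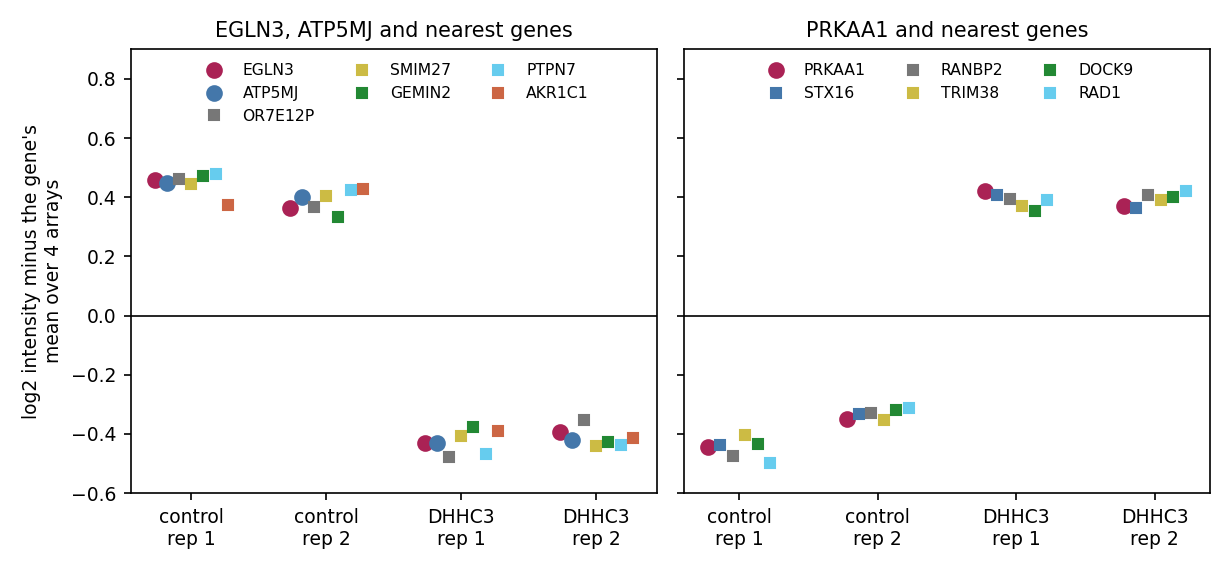
Log2 intensity minus each gene's mean over the 4 arrays (vertical axis) for EGLN3, ATP5MJ and their nearest genes (left) and for PRKAA1 and its nearest genes (right), on the arrays of the 2 control and 2 DHHC3 shRNA tumors. The left genes lie above 0 in control and below 0 in DHHC3 shRNA tumors, and the right genes do the reverse, with distances to the member they were sought for of at most 0.090.

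Other genes of the same pathways were nearly absent from the 101 probe sets with 1 gene symbol, the only ones searched. The 7 probe sets with several symbols and the 29 with none listed were left out of the search. Of 20 genes of the HIF pathway, among them HIF1A, EPAS1, VHL, EGLN1 and EGLN2, only EGLN3 was listed, and of 46 HIF target genes, with CA9, VEGFA, SLC2A1, LDHA and PGK1 among them, again only EGLN3. Of 21 AMPK subunits and upstream factors only PRKAA1 was listed, without its beta and gamma subunits or the upstream kinase gene STK11. Of 24 ATP synthase genes only ATP5MJ was listed, and the searched probe sets held 0 genes of respiratory chain complexes I to IV. A gene missing from the table has no value here, and whether it changed was not analysed. One member does not describe its pathway.

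The lists of neighbouring processes added 2 genes, each higher, as were 73.7% of the 137 probe sets. No link to the 3 genes is read from their direction. TXNIP, which inhibits thioredoxin and glucose uptake and is a substrate of AMPK, was the one listed gene among 17 AMPK substrates. It read 922 and 905 units in control and 2376 and 2317 units in DHHC3 shRNA tumors, 2.57-fold higher. MRPL57, a protein of the mitochondrial ribosome, read 274 and 334 units in control and 579 and 598 units in DHHC3 shRNA tumors, 1.94-fold higher, opposite to ATP5MJ, on an _x_at probe set. ATP5MJ and MRPL57, both nuclear genes for mitochondrial proteins, thus stood on opposite sides of the table.

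Markers of cell types were sparse as well, so the makeup of the tumors could not be read from the table. Of 9 marker sets, sought among the single-symbol probe sets only, 7 had 0 genes listed, among them those of macrophages, endothelium, fibroblasts and adipocytes. S100A4, the one gene listed of 8 for MDA-MB-231 cells, read 9351 and 8746 units in control and 4265 and 4313 units in DHHC3 shRNA tumors, 2.11-fold lower. TRBC1, a T cell receptor segment and the one gene listed of 6 for leukocytes and T cells, read 158 and 147 units in control and 25.4 and 50.4 units in DHHC3 shRNA tumors, 4.25-fold lower. Its probe set has the suffix _s_at, its 2 DHHC3 shRNA arrays lay far apart, and its log2 fold change was -2.09 ± 0.32 (SE). The injected cells were a breast cancer line and the hosts athymic mice, so the TRBC1 signal is not read as T cells. S100A4 and TRBC1 were lower in the same tumors as EGLN3 and ATP5MJ, and the part of cell makeup in those differences was not tested.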

How the data were processed

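The deposited values are linear probe set intensity, already processed by the authors, for 137 probe sets on 4 arrays. No value was 0 or negative. Summarisation, background correction, scaling, detection calls and the choice of probe sets are steps not described in the sources used here. Gene symbols came from the platform annotation: 101 probe sets have 1 symbol, 7 several and 29 none listed. Intensities were turned into log2 values with no pseudocount. DHHC3 shRNA and control shRNA arrays were compared with limma 3.58.1 in R 4.3.3 over all 137 probe sets, with Benjamini-Hochberg adjustment and a threshold of 0.05. The fit gave the SEs and the background of calls, and the 3 genes themselves were not tested. It was also run on simulated data in which most probe sets were unchanged. This list differs from those data, so that run does not bear on the SEs here. The fit pools the spread of probe sets that all separate the groups. Whether the choice of these probe sets made the SEs too small was not tested. SEs of differences between genes came from the 2 arrays per group. The number of arrays limits the precision. The genes, lists and rules were chosen with earlier results of these data known. The rule for named genes took the 3 genes, listed pathway members, the 5 nearest profiles of each gene and ZDHHC3; listed cell markers were added to it. Alternatives were other scalings, pseudocounts, filters and call rules, a replicate block and leaving out each array. Same-numbered arrays of the 2 groups deviated with a correlation of 0.0612. No human genome or human sequence was used, so no positions are given. Python 3.11.15 with pandas 2.3.3 and matplotlib 3.10.9 made the descriptions and figures.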

Additional observations from a re-analysis of the deposited data

How the results depend on the processing

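Each of the 3 genes kept its direction in every alternative run, which for most runs was fixed beforehand. Pseudocounts, a replicate block or leaving out an array cannot reverse a probe set whose groups do not overlap. The centring shift of -0.509 is smaller than the smallest log2 fold change of a higher probe set, 0.654. The kept directions are thus no sign of stability in those runs. The log2 fold changes of EGLN3, PRKAA1 and ATP5MJ were -1.33, 0.28 and -1.36 with arrays centred on the median, -1.43, 0.30 and -1.07 after quantile normalization, and -0.67, 0.64 and -0.81 with a pseudocount of 64. Leaving out 1 array at a time gave -0.87 to -0.78 for EGLN3, 0.75 to 0.84 for PRKAA1 and -0.87 to -0.83 for ATP5MJ. PRKAA1 minus EGLN3 was 1.73 after quantile normalization and 1.31 with a pseudocount of 64 (1.52 to 1.71 without 1 array), and PRKAA1 minus ATP5MJ was 1.37 and 1.44 (1.57 to 1.71). ATP5MJ minus EGLN3, -0.03 as deposited, was 0.35 after quantile normalization, -0.06 with a pseudocount of 16 and -0.14 with one of 64 (-0.05 to 0 without 1 array). Centring shifts all genes alike, and quantile normalization keeps only ranks in a list made up mostly of higher probe sets. In a fit with a replicate block, whose pairing the labels do not state, the log2 fold changes were the same and all 137 probe sets passed in limma, as they did as deposited and without any 1 array, where the lone array of a group is assumed to vary like the other group. Every listed probe set already separated the groups, so these passes are no sign of stability. Centring left 124 (88 higher, 36 lower), quantile normalization 104 (68 higher, 36 lower), ordinary 2-sample statistics 134, and asking also for 2-fold left 60 (49 higher, 11 lower), which holds none of the 3 genes. Averaging probe sets per gene gave no value, as each gene has 1. The table has no detection calls, so signal over background is unknown.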
